A study of Mus musculus with 8 samples.

Results

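The cytosolic ribosomal protein genes were examined in ribosome-associated messenger RNA from the mouse ventral tegmental area (VTA), a midbrain nucleus rich in dopamine neurons. The members were the rows of the count table whose gene identifier maps to a protein-coding symbol made of Rpl or Rps and a number, with Rplp0, Rplp1, Rplp2 and Rpsa added. The Rps6k kinases, the binding protein gene Rps19bp1, pseudogenes and predicted Gm models were left out. The rule gave 85 genes of 56691 rows, 52 of the large (60S) subunit and 33 of the small (40S) subunit.

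All animals carried a Y chromosome and received 2 adeno-associated viruses in the VTA, AAV-TH-Cre, in which the tyrosine hydroxylase promoter drives Cre recombinase, and the Cre-dependent AAV-Flex-NBL10. NBL10 carries an HA tag, and the ribosomes that hold it were enriched with their messages before sequencing. Genotype separated the groups: Ogt flox+/Y, named here the knockdown (4 libraries, replicates 2, 3, 4 and 5), and Ogt flox-/Y, the control (4 libraries, replicates 3, 4, 5 and 6). Ogt encodes the enzyme that adds O-GlcNAc to proteins, and the comparison asks which messages of VTA dopamine neurons change when it is knocked down. The labels give no age. Nor do they tie a replicate to an animal, and a p-value therefore speaks of the spread among these libraries, part of which could be technical.

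A ribosome of the cytosol holds a small subunit, which reads the message, and a large subunit, which joins amino acids, and each ribosomal protein is normally made in step with the others. Messages of ribosomal proteins begin with a C followed by a run of C and T bases, the 5′ terminal oligopyrimidine (TOP) tract, through which mTORC1 and the RNA-binding protein Larp1 control their loading onto ribosomes. The nanobody fusion NBL10 is itself built on ribosomal protein L10a, the product of Rpl10a. Reads of captured messages were counted here and no unbound RNA was analysed, so the amount of a message and its share on tagged ribosomes cannot be told apart.

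Total counts ran from 49802305 to 147747191 reads per library, and levels are given as CPM (counts relative to the library's size, after TMM scaling). Ogt itself was at 159, 118, 118 and 108 CPM in control replicates 3, 4, 5 and 6 and at 74.4, 47.2, 41.7 and 36.0 CPM in knockdown replicates 2, 3, 4 and 5. Its log2 fold change was -1.34 (SE 0.23, edgeR quasi-likelihood adjusted p = 0.00243), in the direction of the labels. The libraries differed in markers of other cells. Of 12 dopamine neuron markers, 10 fell and 1 (Aldh1a1) rose, where 15.1% of all genes tested fell and 13.4% rose. Their sums, which the most abundant markers dominate, overlapped between groups, at 1987 to 3352 CPM in controls and 1762 to 2364 CPM in the knockdown. The mean log2 CPM over the 12 markers (0.1 CPM added) did not overlap, at 6.32 to 7.10 in controls and 4.90 to 5.57 in the knockdown. The median log2 fold change of these markers was -1.67. Summed astrocyte markers lay between 729 and 4066 CPM in controls and between 8187 and 12375 CPM in knockdown libraries (3 of 10 rose, 0 fell). Microglia and macrophage markers summed to 32.2 to 57.6 CPM in controls and 67.2 to 201 CPM in the knockdown (9 of 12 rose), and oligodendrocyte markers to 1274 to 1890 CPM and 1969 to 4481 CPM (6 of 11 rose). No marker of these 4 lists was at 0 in any library. Of the GABA neuron markers 6 of 8 fell, and of the glutamate neuron markers 4 of 6. Control replicate 3 stood apart with 1047 CPM of endothelial markers against 28.4 to 68.3 CPM in the other 7 libraries, and with edgeR 0 of 10 endothelial and 0 of 8 pericyte and smooth muscle markers passed the test (0 and 3 at an unadjusted p under 0.05). Fewer cells of a type and less RNA per cell cannot be told apart in these samples. How much of each library came from cells without the tag was not measured. The part of these differences in the results below was not tested.

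With edgeR on all libraries, ribosomal protein messages were called higher in the knockdown for many members and lower for none. Of the 84 members tested, 38 rose, 0 fell and 46 did not pass the test (edgeR quasi-likelihood, Benjamini-Hochberg adjusted p under 0.05 over all 19912 genes tested). The count of 38 is 45.2% of the members, where 13.4% of all genes tested rose and 15.1% fell. At an unadjusted p under 0.05 with edgeR, 49 members were higher and 0 lower, beside 19.8% and 20.4% of all genes. DESeq2 called 42 members higher and 0 lower, beside 15.5% and 14% of all genes. Limma-voom with quality weights called 48 higher and 3 lower, beside 26.4% and 24.9%. The median log2 fold change over the members was 0.60, beside 0.00 over all genes tested. The lower and upper quartiles of the members were 0.24 and 0.82, and the whole range ran from -0.30 to 1.83. The fold change was above 0 for 79 members and below 0 for 5. In 46 of the 84 members every knockdown library exceeded every control library, a pattern held by 17.1% of all genes tested, and in 0 members was the reverse true, beside 18% of all genes. All 38 members that rose were among these 46. Their folds ran from 1.35 (Rpl29) to 3.07 (Rps27l). The member not tested was Rpl10l, a copy of Rpl10 known from testis, with reads in control replicate 6 only.

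**Figure D1:**
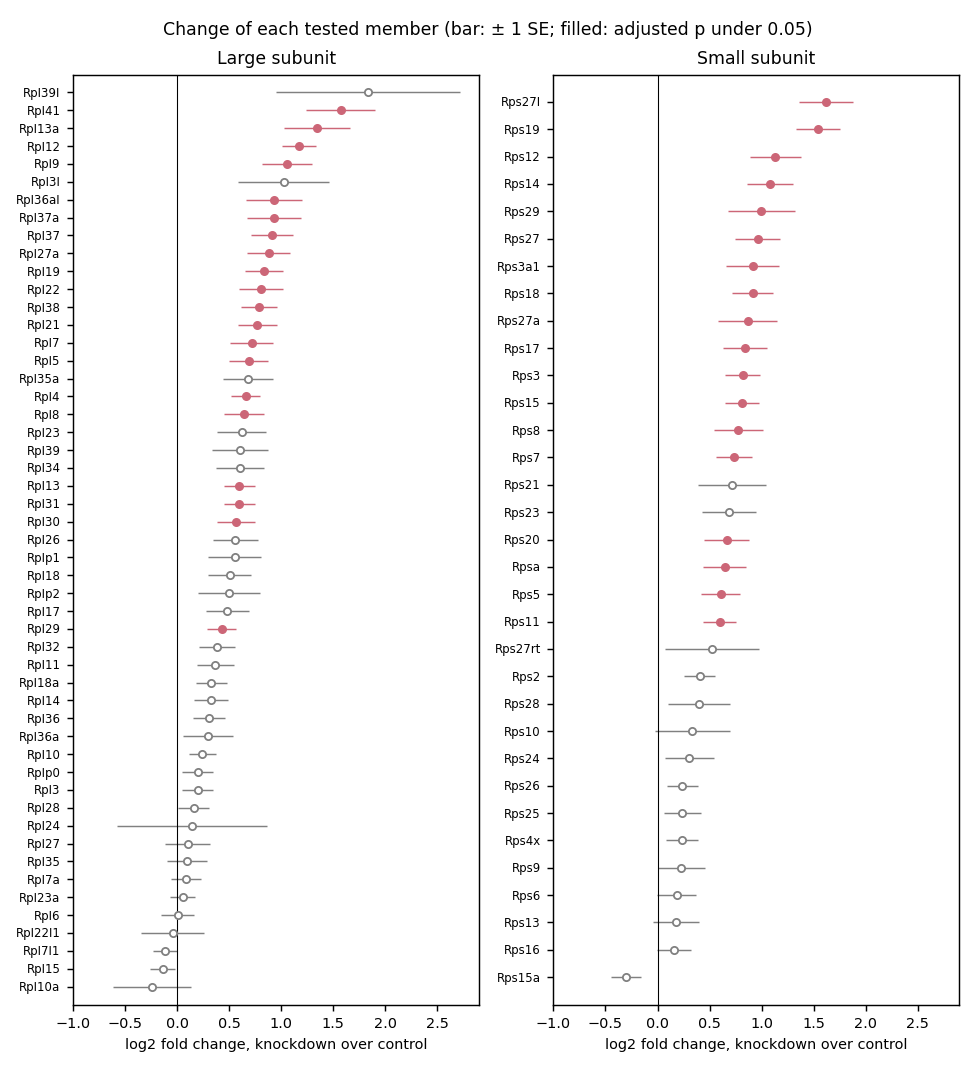
Fitted log2 fold change (knockdown over control, horizontal axis) of the 84 tested members, large subunit on the left and small subunit on the right, each ordered by size. Bars are 1 SE either side from the fit over 8 libraries, and filled points passed an adjusted p of 0.05. Filled points lie to the right of 0 in both panels, 20 of 51 on the left and 18 of 33 on the right.

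Knockdown replicate 3 carried the highest values. It was the highest of the 4 knockdown libraries in 77 of the 84 members, 33 of 33 of the small subunit and 44 of 51 of the large. The exceptions were Rpl3l, Rpl36al, Rpl29, Rpl28, Rpl23a, Rpl7l1 and Rpl10a. Without this library 38 members rose, 37 of them the same genes, and 1 fell (Rps15a), where 13% of all genes tested rose and 16.1% fell. The median log2 fold change without it was 0.31, so about as many members were called at a smaller size. Without control replicate 3 the counts were 38 higher and 1 lower (Rpl10a), where 18.1% of all genes rose and 16.8% fell. Leaving out both libraries numbered 3 gave 51 higher and 3 lower (Rps15a, Rpl10a and Rpl22l1), with a median of 0.35, where 23.5% of all genes rose and 23.3% fell. The members that rose in all 4 versions at once numbered 35. Leaving out a control other than replicate 3 lowered the count, to 21 without control replicate 4, 25 without control replicate 5 and 22 without control replicate 6. The share of all genes that rose was lower there too, at 8.12%, 9.87% and 8.43%. Of the 38 members, 20 were called in each of the 8 fits that leave out 1 library: Rps3, Rps7, Rps12, Rps14, Rps15, Rps18, Rps19, Rps27, Rps27l, Rpl4, Rpl9, Rpl12, Rpl13a, Rpl19, Rpl21, Rpl22, Rpl27a, Rpl37, Rpl38 and Rpl41. The other 18 were lost in at least 1 of them. The share of all genes that rose in every one of these fits, or in the 4 versions above, is not given here. The counts of 20 and 35 therefore have no background beside them.

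Taken as a share of all counted reads, the members other than Rpl10a made up 1.85%, 1.69%, 1.79% and 1.74% in control replicates 3, 4, 5 and 6. The share was 2.61%, 4.07%, 2.28% and 2.56% in knockdown replicates 2, 3, 4 and 5. The 4 control values lay close together (1.77% ± 0.071, SD, n = 4) and below each knockdown value (2.88% ± 0.81, SD, n = 4), of which replicate 3 was far above the rest. With Rpl10a included the shares were 2.81% ± 0.42 and 3.84% ± 0.74 (SD, n = 4 each), and the lowest control was replicate 3 at 2.18%. The 95% Wilson intervals of these shares were at most 0.0114 percentage points wide, for counting error only, so the spread between libraries and not the depth limits them. Mitochondrial ribosomal proteins, a separate set of nuclear genes, took 0.503% ± 0.026 of reads in controls and 0.525% ± 0.098 in the knockdown (SD, n = 4 each). Without knockdown replicate 3, at 0.663%, the mean of the knockdown was 0.479%, below that of the controls.

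**Figure D2:**
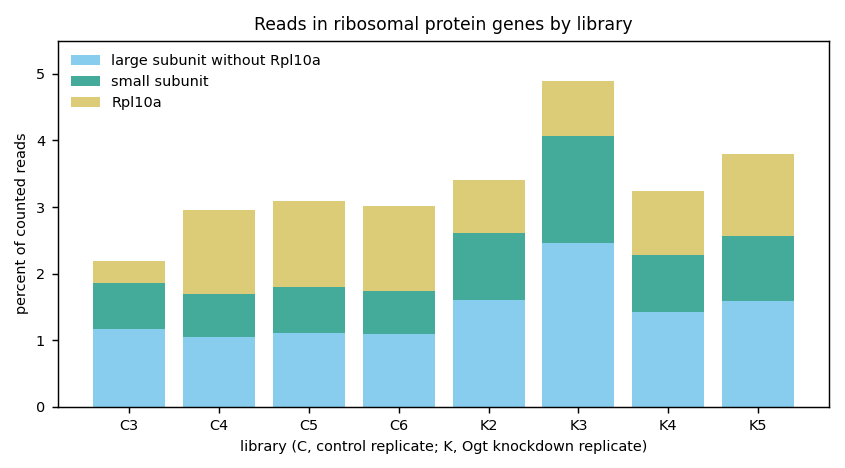
Percent of counted reads (vertical axis) in ribosomal protein genes for each of the 8 libraries, stacked as large subunit without Rpl10a, small subunit and Rpl10a. Below the Rpl10a block the controls reach 1.69% to 1.85% and the knockdown libraries 2.28% to 4.07%, and the Rpl10a block is thinnest in control replicate 3.

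Members of both subunits rose. Of the large subunit 20 of 51 members rose, with a median log2 fold change of 0.56, and of the small subunit 18 of 33 rose, with a median of 0.67. Without knockdown replicate 3 the medians were 0.28 and 0.39, with 21 and 17 members higher. The reads of the large subunit without Rpl10a exceeded those of the small by a ratio of 1.65 ± 0.017 in controls and 1.60 ± 0.062 in the knockdown (SD, n = 4 each). Knockdown replicate 3 had the lowest ratio of the 8, 1.51, and replicates 2, 4 and 5 had 1.60, 1.65 and 1.64, against 1.63 to 1.67 in controls. The difference between subunits was described and not tested.

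Among small subunit genes, Rps19 had the smallest p of all members. Its protein is needed to finish the small subunit, and mutations of the human gene cause Diamond-Blackfan anaemia. Rps19 (ENSMUSG00000040952.17, chr7:24583796-24589231 in GRCm39) was at 99.2, 127, 143 and 133 CPM in control replicates 3, 4, 5 and 6 and at 323, 535, 288 and 317 CPM in knockdown replicates 2, 3, 4 and 5. Each knockdown library was above each control, and replicate 3 was the highest. The fold was 2.91 (log2 1.54, SE 0.21, adjusted p = 0.000971) and 2.46 without knockdown replicate 3.

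Rps14, a protein of the small subunit platform, had the tightest controls, 192, 195, 198 and 196 CPM in replicates 3 to 6. The knockdown libraries read 331, 652, 322 and 347 CPM in replicates 2 to 5, a fold of 2.11 (log2 1.08, SE 0.22, adjusted p = 0.00618). Rps15, whose tail reaches the decoding site, was at 397, 331, 363 and 358 CPM in controls and 578, 841, 514 and 614 CPM in the knockdown. It rose 1.76-fold (log2 0.81, SE 0.16, adjusted p = 0.00565), and by length it was among the most abundant members, at 575 CPM per kilobase in controls and 1011 in the knockdown. Rps12 (2.19-fold), Rps29 (2.00-fold), Rps27 (1.95-fold), Rps3a1 (1.89-fold) and Rps18 (1.88-fold) rose as well. For Rps29 the adjusted p was 0.0422. The call was lost when knockdown replicate 2, knockdown replicate 3 or any 1 control was left out (adjusted p = 0.0566 to 0.108). With length and GC offsets it was lost too. Rps29 passed without both libraries numbered 3 (adjusted p = 0.0271) and with limma-voom (adjusted p = 0.037). Its fold without knockdown replicate 3 was 1.47. Rps3a1 no longer passed without control replicate 4 or 6 or with the offsets (adjusted p = 0.0641, 0.0614 and 0.0578).

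Rpsa, which encodes the laminin receptor as well as a small subunit protein, was at 486, 362, 414 and 386 CPM in controls and 558, 948, 498 and 574 CPM in the knockdown (1.56-fold, adjusted p = 0.0423). Rps27a, made as a fusion with ubiquitin, was at 263, 232, 252 and 246 CPM in controls and 372, 808, 300.3 and 328 CPM in the knockdown. Its fold of 1.82 (adjusted p = 0.0469) became 1.34 without knockdown replicate 3, the highest library. The calls of Rpsa and Rps27a were each lost when control replicate 4, 5 or 6, or knockdown replicate 2 or 5, was left out. Rps6, the substrate of the S6 kinases downstream of mTORC1, did not pass the test: the controls read 391, 278, 294 and 306 CPM and the knockdown libraries 307, 496, 291 and 348 CPM. The groups of Rps6 overlapped, with log2 0.18 (SE 0.19, adjusted p = 0.511) and a fold of 0.993 without knockdown replicate 3.

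Rps15a was the small subunit member with a fold change below 0. Its controls read 213, 222, 209 and 231 CPM in replicates 3 to 6, and the knockdown libraries 164, 231, 156 and 159 CPM in replicates 2 to 5. Knockdown replicates 2, 4 and 5 lay below each control and replicate 3 lay at their upper end. With all libraries the log2 fold change was -0.30 (SE 0.15, adjusted p = 0.154). Without knockdown replicate 3 it was 1.37-fold lower (adjusted p = 0.00572), and without both libraries numbered 3 it was 1.38-fold lower (adjusted p = 0.000477).

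In the large subunit the smallest p belonged to Rpl12, a protein at the base of the stalk that receives translation factors. Rpl12 (ENSMUSG00000038900.18, chr2:32851571-32855357 in GRCm39) was at 109, 121, 126 and 119.7 CPM in controls and 241, 360.0, 219 and 249 CPM in the knockdown. The lowest knockdown library was well above the highest control. The fold was 2.25 (log2 1.17, SE 0.16, adjusted p = 0.00103) and 1.99 without knockdown replicate 3.

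Rpl41, which encodes the shortest protein of the ribosome, read 330.1, 454, 511 and 454 CPM in controls and 1023, 2403, 829 and 939 CPM in the knockdown. The fold of 2.97 (log2 1.57, SE 0.33, adjusted p = 0.00658) was 2.13 without knockdown replicate 3. Rpl9 rose 2.08-fold, Rpl37a 1.91-fold and Rpl4 1.58-fold, and the call of Rpl37a was lost without control replicate 4, 5 or 6 (adjusted p = 0.0535 to 0.0683). Rpl4, one of the proteins lining the exit tunnel, was at 577, 523, 550.2 and 529 CPM in controls and 851, 1048, 740.4 and 804 CPM in the knockdown, so that the knockdown libraries were closer to each other than for Rpl41.

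The stalk proteins themselves, Rplp0, Rplp1 and Rplp2, did not pass the test. Rplp0 read 310.2, 239, 253 and 249 CPM in controls and 267, 361, 264 and 313 CPM in the knockdown (log2 0.20, SE 0.15, adjusted p = 0.347). Rplp1, after Rpl10a the member with the most reads per kilobase (772 CPM per kilobase in controls, 1133 in the knockdown), read 346, 378, 409 and 408 CPM and 459, 947, 398 and 459 CPM. Rplp2 read 261, 241, 246 and 246 CPM and 253, 648, 239 and 265 CPM. In all 3 genes the groups overlapped, and for Rplp1 and Rplp2 the difference of means came mostly from knockdown replicate 3, since the folds without it were 1.14 and 1.02.

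Rpl5 and Rpl11, which together with 5S RNA bind Mdm2 when ribosome assembly is disturbed, lay on either side of the threshold with all libraries. Rpl5 read 263, 215, 246 and 230.5 CPM in controls and 351, 552, 309.7 and 324 CPM in the knockdown, with no overlap (1.61-fold, log2 0.69, SE 0.19, adjusted p = 0.0232). This call was lost without control replicate 4, 5 or 6. Rpl11 read 323, 266, 272 and 251 CPM and 329, 489, 304 and 313 CPM, where control replicate 3 lay among the knockdown values (log2 0.37, SE 0.17, adjusted p = 0.143). Rpl11 was called without both libraries numbered 3 (adjusted p = 0.0197) and with limma-voom (adjusted p = 0.0187), as Rpl5 was, while Rpl5 was no longer called without control replicate 4, 5 or 6 (adjusted p = 0.0519 to 0.0774). The difference between the genes was not tested.

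**Figure D3:**
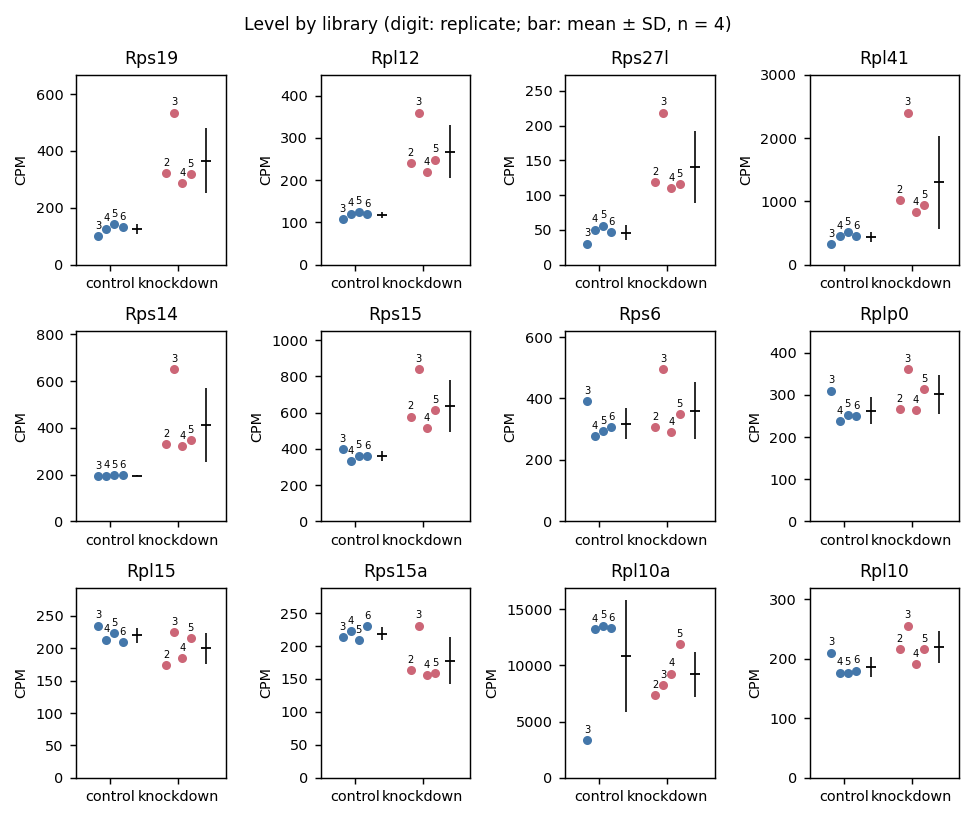
CPM (vertical axis, from 0) of 12 members in each library, with the replicate number beside each point and the mean ± SD (n = 4) beside each group. Rps19, Rpl12, Rps27l, Rpl41, Rps14 and Rps15 have no overlap between groups, Rps6, Rplp0, Rpl15, Rps15a and Rpl10 overlap, and control replicate 3 of Rpl10a lies far below the other controls.

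Rpl10a, a protein of the mobile stalk beside the exit site, was far more abundant than the other members. It read 3379, 13219, 13526 and 13279.9 CPM in control replicates 3, 4, 5 and 6 and 7359, 8243, 9262 and 11908 CPM in knockdown replicates 2, 3, 4 and 5. Its mean was 11.5 times that of the next member in CPM, and per kilobase of exon it was 5.78 times the next in controls. It took between 15.0% and 43.0% of all member reads of a library. Control replicate 3 was the lowest of the 8 libraries and the other controls were the highest, so the groups overlapped and the call depended on that library. With all libraries the log2 fold change was -0.24 (SE 0.38, adjusted p = 0.674). Without control replicate 3 it was 1.45-fold lower in the knockdown (adjusted p = 0.0416). The processed pseudogene Rpl10a-ps1 was also lowest in that library, at 113 CPM in control replicate 3, 593 to 631 CPM in the other controls and 205 to 561 CPM in the knockdown. The sequence of the NBL10 vector was not used here, and whether reads of its L10a part were counted on Rpl10a was not tested.

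The 4 members on the X chromosome, which also carries Ogt, were not called with edgeR on all libraries (1 of them, Rpl39, had an unadjusted p under 0.05). Rpl10 read 210.1, 177, 177 and 180.0 CPM in controls and 216, 256, 191 and 216 CPM in the knockdown (log2 0.24, SE 0.13, adjusted p = 0.193), and without both libraries numbered 3 it was called 1.17-fold higher (adjusted p = 0.0424). The log2 fold changes of Rps4x, Rpl36a and Rpl39 were 0.23, 0.30 and 0.60. The members below 0 other than Rps15a and Rpl10a were Rpl15 (-0.14), Rpl7l1 (-0.12) and Rpl22l1 (-0.04). Rpl15 read 235, 213, 223 and 209 CPM in controls and 175, 225, 185 and 216 CPM in the knockdown, with overlap and no call (adjusted p = 0.434).

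**Figure D4:**
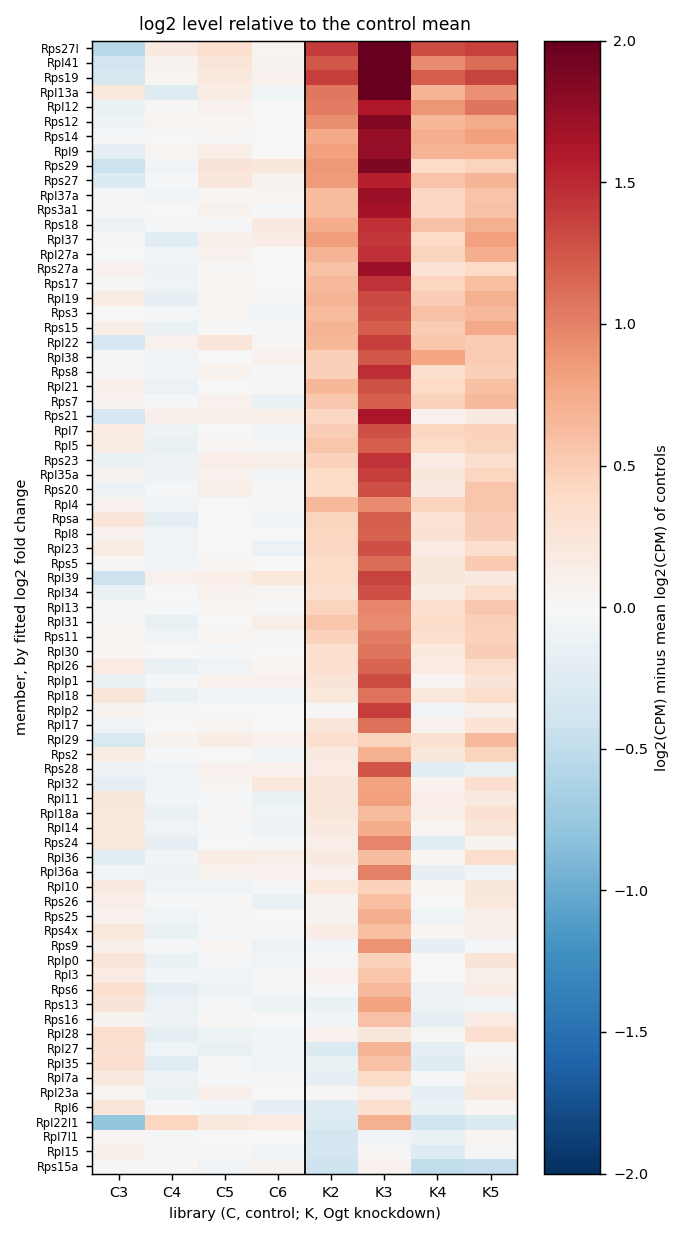
Heat map of log2 CPM minus the mean log2 CPM of the controls (colour, limited to 2 in each direction) for the tested members with a control mean above 10 CPM other than Rpl10a, in rows ordered by fitted fold change, and the 8 libraries in columns. Knockdown replicate 3 is the darkest column, the other knockdown columns fade from top to bottom, and the bottom rows (Rpl7l1, Rpl15 and Rps15a) turn blue in knockdown replicates 2 and 4.

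Across the members, the difference between knockdown and control of the same number was taken for numbers 3, 4 and 5, each from its own libraries. The median log2 difference was 1.09 for number 3, 0.29 for number 4 and 0.40 for number 5, with 77, 66 and 75 of 83 members above 0. Over these 83 genes Pearson's r was 0.90 between numbers 4 and 5, 0.39 between 3 and 4 and 0.33 between 3 and 5. The genes of a library share its depth and handling, so these values describe the libraries only.

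A number of ribosomal proteins have a second gene. The plain ratio of the copy to the standard gene within a library does not depend on scaling. Here 0.1 CPM was added to each value, so the ratio of a copy with few reads depends on scaling in part. For 7 pairs the log2 ratio was compared by an exact two-sided permutation test over the 8 libraries, whose smallest possible p is 0.0286, with adjustment over the 7 pairs. In 4 pairs the groups did not overlap (exact p = 0.0286, adjusted p = 0.05, which equals the threshold and is not under it).

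Rps27l, a copy of Rps27 known as a target of p53, read 30.4, 50.5, 56.1 and 46.6 CPM in controls and 118, 219, 111 and 116 CPM in the knockdown, and rose 3.07-fold (log2 1.62, SE 0.26, adjusted p = 0.00192 with edgeR). Rps27 read 103, 123, 146 and 132 CPM and 225, 369, 185 and 201 CPM (log2 0.96, SE 0.22, adjusted p = 0.01). Both genes rose, and the log2 ratio of Rps27l to Rps27 went from -1.48 ± 0.21 in controls to -0.81 ± 0.084 in the knockdown (SD, n = 4 each), a difference of 0.67.

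For Rpl22l1 and Rpl22 the ratio moved the other way. Rpl22l1 read 22.2, 50.8, 43.2 and 42.3 CPM in controls and 31.4, 62.2, 28.9 and 31.3 CPM in the knockdown, while Rpl22 read 95.2, 128, 143 and 122 CPM and 192, 313, 178 and 171 CPM and rose 1.75-fold (adjusted p = 0.0184 with edgeR). The groups overlap for Rpl22l1 and not for Rpl22. The log2 ratio was -1.67 ± 0.33 in controls and -2.50 ± 0.14 in the knockdown (SD, n = 4 each), a difference of -0.83. Without both libraries numbered 3, Rpl22l1 itself was 1.49-fold lower (adjusted p = 0.000449 with edgeR).

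Rpl7l1 stayed between 84.9 and 87.9 CPM in controls and read 66.9, 82.1, 78.4 and 89.2 CPM in the knockdown. Rpl7 read 389.8, 325, 344 and 336 CPM in controls and 491, 853, 469 and 476 CPM in the knockdown and rose 1.64-fold (adjusted p = 0.0256 with edgeR), a call lost without control replicate 4, 5 or 6 (adjusted p = 0.0619 to 0.0797). The log2 ratio of Rpl7l1 to Rpl7 was -2.02 ± 0.091 in controls and -2.81 ± 0.42 in the knockdown (SD, n = 4 each), a difference of -0.80. Rps4l, annotated as a transcribed processed pseudogene and so no member, read 69.6, 44.7, 48.7 and 52.9 CPM in controls and 20.5, 32.3, 19.1 and 22.7 CPM in the knockdown. It fell by 1.19 on the log2 scale (SE 0.20, adjusted p = 0.00244 with edgeR), and its log2 ratio to Rps4x differed by -1.42. Reads of near-identical copies could be lost or split in the counting, so levels of such pairs are uncertain.

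The other pairs involve copies with few reads. Rpl3l, the form known from muscle, read 2.19, 0.605, 0.781 and 0.615 CPM in controls and 2.09 to 2.16 CPM in the knockdown, so control replicate 3 matched the knockdown libraries (ratio difference 0.97, exact p = 0.0571, adjusted p = 0.0667). With edgeR on all libraries Rpl3l was not called (adjusted p = 0.107). Without control replicate 3 it was 3.18-fold higher (edgeR adjusted p = 0.00118). Rpl3l was also called without both libraries numbered 3 (edgeR adjusted p = 0.000414) and with limma-voom (adjusted p = 7.77e-05). Rpl36al read 1.20 to 2.19 CPM and 2.65 to 3.12 CPM and was called higher by edgeR (1.91-fold, adjusted p = 0.0275), but its ratio to Rpl36a overlapped (difference 0.70, exact p = 0.0571, adjusted p = 0.0667). The edgeR call was lost without control replicate 5 or 6, without knockdown replicate 2, 4 or 5, and with length and GC offsets (adjusted p = 0.0558 to 0.0913). Exons of Rpl36al are overlapped by the model Gm49383 over 24.5% of their length, so its level is a lower limit and its ratio is uncertain. Rpl39l was under 0.1 CPM in each control and between 0.133 and 0.398 CPM in the knockdown, near the floor of 3 reads, which is 0.0203 to 0.0602 CPM. Its ratio to Rpl39 differed by 0.45 (exact p = 0.114, adjusted p = 0.114), with 0.1 CPM added to each value, and by -0.34 with 1 CPM added, so its direction depends on this setting.

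**Figure D5:**
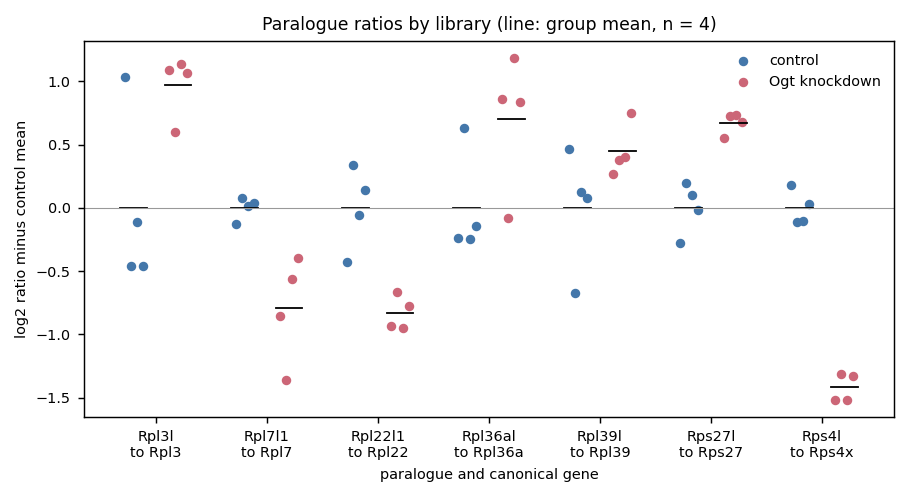
Log2 ratio of each copy to its standard gene in each library, minus the mean of the controls (vertical axis), for 7 pairs, with a line at each group mean (n = 4). The groups are apart for Rpl7l1, Rpl22l1, Rps27l and Rps4l, with mean differences of -0.80, -0.83, 0.67 and -1.42, and overlap for Rpl3l, Rpl36al and Rpl39l.

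Some members are hard to count. Reads that fall on exons of 2 genes were not counted, and the exons of 12 tested members overlap those of other rows over at least 20% of their length. Overlap did not always go with few reads: Rpl35 and Rpl23a, overlapped over 66.2% and 62.3% of their length, had control means of 92.4 and 89.4 CPM. Rpl24, overlapped by the model Gm28037 over 47.0% of its length, read only 0.104 to 0.826 CPM. Rpl36al, overlapped by the model Gm49383 over 24.5% of its length, read 1.20 to 3.12 CPM. Rps10, overlapped by the read-through RPS10-NUDT3 and by Gm15420, read 1.73 to 5.31 CPM, and Rpl13a, overlapped by Gm45713, read 8.50 to 11.7 CPM in controls and 16.2 to 47.5 CPM in the knockdown (2.53-fold, adjusted p = 0.0119). These levels are lower limits, and those of Rpl24 and Rps10 cannot be read as the levels of their messages. Of the 72 tested members with less overlap, 32 rose. Exons of the members were also short, with a median of 1739 bases against 3688 for all genes tested. With an offset for length and GC content, 33 members rose, 0 fell and the median was 0.41.

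The starts of the genes were read for TOP-like runs, because the TOP tract is the feature that members share by background. RefSeq start windows (GRCm38.p6, 15 bases before and 15 from the annotated start) were found for 65 members, 55 of them with 1 annotated start. A run of at least 7 bases of C and T, on the strand of the gene, was present in 26 of these 55 (47.3%) and in 18.4% of 22862 genes with 1 start. The windows below show members with fold changes at the top, middle and bottom of the range, with the longest run in capitals.

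Rps18 (chr17:33955651-33955680, minus strand): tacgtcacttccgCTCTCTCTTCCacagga
Rpl12 (chr2:32961697-32961726, plus strand): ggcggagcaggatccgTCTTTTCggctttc
Rpl41 (chr10:128549154-128549183, minus strand): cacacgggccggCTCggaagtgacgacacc
Rps6 (chr4:86857353-86857382, minus strand): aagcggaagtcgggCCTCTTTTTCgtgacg
Rpl15 (chr14:18270972-18271001, minus strand): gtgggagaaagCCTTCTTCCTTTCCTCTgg
Rps15a (chr7:118116133-118116162, minus strand): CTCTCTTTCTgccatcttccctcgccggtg
Rpl22l1 (chr3:28805493-28805522, plus strand): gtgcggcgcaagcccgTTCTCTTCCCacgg

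Runs stand in the windows of Rps18 (log2 0.91) and Rpl12 (log2 1.17), and also in those of Rps6 (log2 0.18), Rpl15 (log2 -0.14), Rps15a (log2 -0.30) and Rpl22l1 (log2 -0.04). The run of Rps15a lies before the annotated start and so outside the annotated message. In Rpl41 the longest run was of 3 bases. Windows not printed were those of Rpl13a (log2 1.34) and Rps12 (log2 1.13), with runs of 13 and 7 bases. That of Rpl7l1 (log2 -0.12), also not printed, had a longest run of 2 bases. Members with a run had a median log2 fold change of 0.50, with 10 of 26 called higher, and tested members without one had 0.54, with 11 of 28 called higher. A run is a description of these letters, and the annotated start need not be the start used in these cells. Runs were taken anywhere in the window and need not be the TOP tract. The split by runs therefore cannot show whether the tract goes with the fold change.

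Ribosomal proteins that carry other symbols were read beside the members. Fau, made as a fusion of a ubiquitin-like protein with a small subunit protein, read 354, 291, 307 and 310.0 CPM in controls and 425, 871, 395 and 431 CPM in the knockdown (1.68-fold, adjusted p = 0.0445). Omitting any of control replicates 4, 5 and 6, or of knockdown replicates 2 and 5, ended this call. Rack1, a scaffold on the small subunit, had a log2 fold change of 0.37 (adjusted p = 0.123).

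Other genes of translation were read against the 13.4% higher and 15.1% lower of all genes tested. Of 20 other messages with a TOP tract, 7 rose and 0 fell, (35% and 0%), with a median log2 fold change of 0.33. Those that rose were Vim (6.37-fold), Eef1b2 (2.59-fold), Fau, Tpt1, Eif3h, Pabpc1 and Eif4b. Vim, an intermediate filament, is also known from astrocytes. Of 77 mitochondrial ribosomal proteins 4 rose (5.19%) and 15 fell (19.5%), with a median of -0.17, among them Mrps5 (1.77-fold lower) and Mrps6 (3.39-fold higher). Among 37 initiation factors 5 rose (13.5%) and 3 fell (8.11%), near or under the shares of all genes (median 0.08), with Eif3a 1.92-fold higher and Eif1ax 2.03-fold lower. Among 14 elongation and termination factors 2 rose (14.3%) and 4 fell (28.6%), with a median of 0.08 and with Eif5a2 3.05-fold lower and Gspt2 1.73-fold lower.

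Genes that make ribosomes were called about as often as genes in general. Of 68 ribosome biogenesis factors 9 rose (13.2%) and 8 fell (11.8%), with a median of -0.01 and with Nop10, of the box H/ACA particles that modify ribosomal RNA, 2.53-fold lower and Utp20, of the processome of the small subunit, 1.96-fold higher. Of 15 genes of RNA polymerase I and its factors 1 rose (Polr1e, 6.67%) and 2 fell (Ubtf and Taf1a, 13.3%). Of 29 genes of mTORC1 signalling to translation 6 rose (20.7%) and 3 fell (10.3%). Eif4ebp1, a repressor of cap-dependent initiation, was 3.45-fold higher (adjusted p = 0.000855), and Rragb, a Rag GTPase that brings mTORC1 to the lysosome, was 2.72-fold lower (adjusted p = 0.000567). Of 16 genes of ribosome quality control 3 rose and 3 fell (18.8% each), with Tcf25 1.79-fold lower and Gtpbp2 2.18-fold lower. The median log2 fold change of these 4 lists lay between -0.05 and 0.02, where that of the ribosomal proteins was 0.60.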

How the data were processed

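Read counts per gene were deposited as 1 table for 8 libraries. Per the file headers, the authors counted with featureCounts 2.0.3 over exons of GENCODE vM30, without strand, as single mates, without reads of several alignments or of several genes. The submitters' processing notes also list FastQC, Trimmomatic, STAR and mm10, whereas vM30 is an annotation of GRCm39. For 83 of the 85 members the position differs from that in GRCm38 by more than their own span, and 76 of these had a mean of over 1000 reads per library, which reads placed by GRCm38 positions would not give, so table coordinates are taken as GRCm39. The authors' deposited gene lengths (other values of the table) gave levels per kilobase. Symbols came from GENCODE M21, matched by identifier for 52073 rows; the 4618 without one held 0.327% to 1.81% of reads.

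Counts were filtered with filterByExpr, scaled by TMM and tested with edgeR 4.0.16 in R 4.3.3 (robust quasi-likelihood, two-sided, adjusted over 19912 genes, threshold 0.05). Shares are of raw counts. Ratios of copies used log2 with 0.1 CPM added. The same-numbered libraries had correlations of 0.104, 0.0987 and 0.0422 in their deviations, and libraries of unlike number had -0.103 to 0.0808. These values do not settle whether the numbers pair the samples, and the main test left the numbers out. Same-group libraries differed by more than sampling noise (chi-square per degree of freedom 22.9 to 420.0). Every member could be named. Values in each library are given for the 5 members of smallest p in each direction, for paralogue pairs, for Rpl10a, Rplp0, Rplp1, Rplp2, Rpsa, Rps6, Rpl5, Rpl11 and Rps27a, and for those highest or lowest per length. Up to 2 genes per other list are named, and exceptions to counts. Rpl41, Rpl4, Rpl10, Rps10 and Rpl13a were given in more detail after their values were seen. The members and lists were chosen with earlier results of these data known. Alternatives were other scalings and filters, DESeq2 1.42.0, limma-voom (3.58.1), a replicate block, length and GC offsets, and leaving out libraries.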

Additional observations from a re-analysis of the deposited data

Results flagged for a closer look

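In 86 groups of 4 values (members named in the report, shares and paralogue ratios), the gap of an end value to the nearest other was set against the range. By chance about 1 group in 20 would be picked out, and members share libraries, so the picks are not independent. The gap was too wide in 23 groups, 18 times for knockdown replicate 3, 4 times for control replicate 3 and 1 time for control replicate 4.

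Knockdown replicate 3 was far above the other 3 knockdown libraries in small subunit genes: Rps19 at 535 CPM, Rps27l at 219 CPM, Rps14 at 652 CPM, Rps15a at 231 CPM, Rps4x at 400.2 CPM, Rpsa at 948 CPM and Rps27a at 808 CPM. It stood out likewise in large subunit genes, with Rpl3 at 899.6 CPM, Rpl7 at 853 CPM, Rpl22 at 313 CPM, Rpl22l1 at 62.2 CPM, Rpl36a at 244 CPM, Rpl39 at 283 CPM and Rpl11 at 489 CPM. The stalk genes Rplp1 at 947 CPM and Rplp2 at 648 CPM, and Fau at 871 CPM, showed the same. For Rplp2 the other knockdown libraries lay at 239 to 265 CPM, near the controls. Its log2 ratio of Rpl3l to Rpl3 was -8.65, below -8.19 to -8.11 in the other 3.

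Control replicate 3 was far from the other controls in Rpl10a, at 3379 CPM against 13219 to 13526 CPM, and in the share of reads in all members, at 2.18% against 2.96% to 3.09%. It was above them in Rpl3l, at 2.19 CPM, and in Rpl24, at 0.826 CPM. Control replicate 4 had the highest log2 ratio of Rpl36al to Rpl36a among controls, -5.62 against -6.50 to -6.39.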

How the results depend on the processing

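The count of 38 higher members was between 33 and 42 under 2 other scalings, TMM without the members, no filter, a filter of 1 CPM in 4 libraries, estimation without robustness, length and GC offsets and DESeq2. Genes called over the whole table (5668) numbered 10218 with limma-voom and 9565 without both libraries numbered 3, and the members called lower numbered 3 in each. With the replicate number as a block, only 3 numbers being shared, 1258 of the 19912 genes tested were called in either direction. Of the 84 members tested, 2 were called (Rpl12 and Rps19, edgeR adjusted p = 0.0469 and 0.0488), a smaller share than of all genes. The median log2 fold change of the members was 0.61 there. Whether the numbers pair the samples was not settled. Leaving out each library in turn gave 21 to 38 members higher, 0 to 1 lower, 3876 to 7198 genes called, a median log2 fold change of 0.31 to 0.66 and a difference in read share of 0.672 to 1.22 percentage points (1.03 with all libraries). With 3 against 4 libraries the exact test of paralogue ratios cannot go below 0.0571, and with 1 CPM added the ratio of Rpl39l to Rpl39 differed by -0.34 in place of 0.45. Leaving out Rpl10a from the share, and leaving out overlapped members (32 higher), were chosen after seeing the data. For genes under about 1 CPM (Rpl24, Rpl39l and Rps27rt) the depth limits what can be seen. The causes of these changes were not tested.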
